A study of Homo sapiens with 6 samples.

Results

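Cytochrome P450 (CYP) enzymes are heme proteins of the endoplasmic reticulum and of mitochondria that insert oxygen into drugs, other foreign compounds, steroids, bile acids and fatty acids. The chromatin of 9 family members was described here, out of 19970 protein-coding genes: CYP1A1, CYP1A2, CYP1B1, CYP2B6, CYP2D6, CYP2E1, CYP3A4, CYP7A1 and CYP27A1. The genes were chosen by name, and every peak that overlapped a gene body or the 5 kb on either side of it in the GENCODE annotation of hg38 was assigned to that gene. This stretch is called the window of the gene. Histone acetylation at promoters and enhancers is a mark of open and active chromatin, and many CYP genes are known for switching on in the liver through foreign-compound sensors such as AHR and through nuclear receptors.

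The cells were cultured HepG2 cells, a human liver cancer line. Control cells received no sodium benzoate (SB), and treated cells received 10 mM SB for 24 h. Chromatin was cut with micrococcal nuclease and precipitated with pan antibodies against acetylated lysine (Kac) or benzoylated lysine (Kbz), which do not tell which histone or which residue carried the mark. Input, Kac and Kbz libraries were made once for the control and once for SB, 6 libraries in all. The 3 peak lists used held 70326 (control Kac), 63282 (SB Kac) and 24308 (SB Kbz) peaks. According to the labels, the control Kbz library gave no peaks, so no Kbz comparison between control and SB could be made at any gene. With a single library per group there was no replicate error and no test, and the depth of each library is unknown. A difference in peak calls between control Kac and SB Kac therefore describes a pair of libraries.

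The labelled cell type was compared with marker genes. Of 20 genes for liver products, 10 had a control Kac peak, 11 an SB Kac peak and 4 an SB Kbz peak within 3 kb of a start site. Over all 19970 protein-coding genes the shares were higher, 76.8%, 75.9% and 64.8%. ALB, the serum albumin gene, had none in the 3 lists. Of 10 liver transcription factor genes the counts were 7, 8 and 5, with none for FOXA2 and NR1H4. Of 14 transcription factor genes of kidney development they were 13, 13 and 12 (92.9%, 92.9% and 85.7%). Among 10 neuronal genes 4, 5 and 5 had such a peak, and among 10 blood lineage genes 4, 5 and 3. The part of the cell type in the CYP results was not tested.

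Of the 9 CYP genes, 6 had a Kac peak in the window in control cells, the same 6 had one in SB-treated cells, and 5 of them had a Kbz peak after SB. They were CYP1A1, CYP1A2, CYP1B1, CYP2E1, CYP3A4 and CYP27A1, with CYP3A4 lacking Kbz. CYP2B6, CYP2D6 and CYP7A1 had no peak in any list. Over all protein-coding genes, 82.9% of windows held a control Kac peak, 81.6% an SB Kac peak and 72.6% an SB Kbz peak, and 15.2% held no peak in any list. The median window measured 37117 bp for the 9 genes and 37476 bp for all genes, and both sets had a median of 5 annotated start sites.

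**Figure D1:**
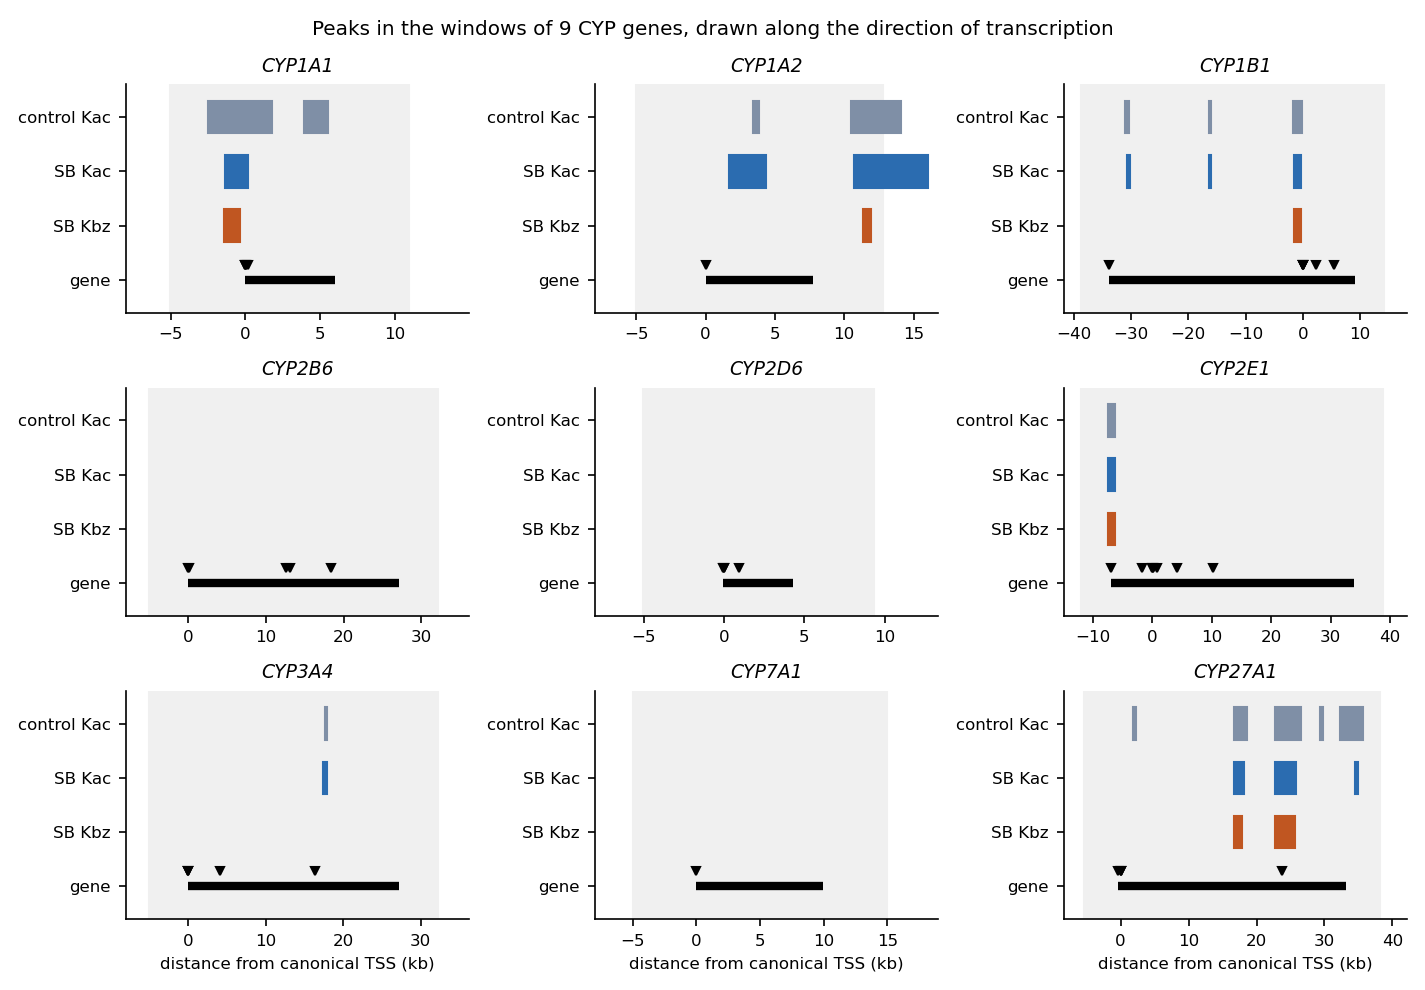
Positions of control Kac, SB Kac and SB Kbz peaks (coloured bars) in the windows of the 9 CYP genes; the x axis gives the distance in kb from the transcription start site (TSS) of the canonical transcript, the black bar is the gene body, triangles mark annotated start sites and the grey field is the window. The 6 genes with peaks carry 14 control Kac, 11 SB Kac and 6 SB Kbz peaks, and CYP2B6, CYP2D6 and CYP7A1 are empty.

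The windows held 14 control Kac peaks, 11 SB Kac peaks and 6 SB Kbz peaks. Of these 14 control Kac peaks, 11 overlapped an SB Kac peak (78.6%, Wilson 95% interval 52.4 to 92.4), against 64.7% of all control Kac peaks. All 11 SB Kac peaks overlapped a control Kac peak, against 72.5% in the whole list, so no SB Kac peak of these windows lay apart from the control peaks. The 3 control Kac peaks without an SB Kac counterpart lay at CYP1A1 and CYP27A1. All 6 Kbz peaks overlapped an SB Kac peak, against 93.7% of all Kbz peaks. In the other direction Kbz lay on 6 of the 11 SB Kac peaks (54.5%, 28.0 to 78.7), against 33.8% of the whole SB Kac list. These intervals cover counting error only.

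A promoter peak was one within 3 kb of any annotated start of the gene. Control Kac had one at 5 of the 9 genes, SB Kac at 6 and Kbz at 4. The shares were 55.6%, 66.7% and 44.4%, against the 76.8%, 75.9% and 64.8% of all protein-coding genes. The Wilson intervals of the 9 genes (26.7% to 81.1%, 35.4% to 87.9% and 18.9% to 73.3%) included these shares of all genes. The 4 genes CYP1A1, CYP1B1, CYP2E1 and CYP27A1 had a promoter peak in all 3 lists. Among the 6 with SB Kac at a promoter, 4 also had Kbz (66.7%), against 85.1% of all genes with SB Kac at a promoter. At the canonical start alone the counts fell to 3, 3 and 2 genes, beside 73.1%, 72.1% and 60.5% of all genes, because the peaks of CYP2E1, CYP3A4 and the main ones of CYP27A1 lay at other start sites. Control Kac marked the canonical start of CYP1A1, CYP1B1 and CYP27A1, SB Kac that of CYP1A1, CYP1A2 and CYP1B1, and Kbz that of CYP1A1 and CYP1B1.

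The CYP1 genes encode enzymes that oxidise polycyclic aromatic compounds and are classical targets of AHR, the receptor for dioxin and related ligands. CYP1A1 (ENSG00000140465.15) lies on the minus strand of chromosome 15 from 74719542 to 74725536, with its canonical TSS at 74725528. In control cells a Kac peak of 4288 bp reached from 2502 bp upstream to 1785 bp downstream of this TSS and covered all 5 start sites. In SB-treated cells the Kac peak there measured 1552 bp, from 1356 bp upstream to 195 bp downstream, and again covered the 5 start sites. The fold enrichment of these peaks over background ranked at percentile 81.8 of the control Kac list and percentile 84.2 of the SB Kac list. Ranks are given within a list, since folds cannot be compared between lists of unknown depth. The Kbz peak at CYP1A1 was 1074 bp long and lay upstream of the gene, 315 to 1388 bp before the TSS, at percentile 32.8 of its list. It covered none of the start sites, unlike the Kac peaks. A further control Kac peak in the body of the gene, 3966 to 5557 bp downstream of the TSS, ranked low (percentile 9.01) and had no SB Kac or Kbz counterpart. Control Kac peaks covered 36.8% of the CYP1A1 window, those of SB Kac 9.7% and the Kbz peak 6.71%.

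The sequence at the CYP1A1 start is shown with the centre of its Kbz peak, because the Kac peaks cover the start while the Kbz peak begins upstream of it. The promoter is the RefSeq sequence on GRCh38.p14 from 250 bases before to 50 bases after the start (chr15:74725479-74725778, minus strand), and the peak centre comes from hg38 (chr15:74726230-74726529, minus strand). Both run 5′ to 3′ along the gene. Capitals mark, on either strand, GCGTG (the core of the response element that AHR binds), AGGTCA and AGTTCA (short sequences that nuclear receptors bind) and TATAAA (the TATA box), which may overlap each other.
CYP1A1 promoter: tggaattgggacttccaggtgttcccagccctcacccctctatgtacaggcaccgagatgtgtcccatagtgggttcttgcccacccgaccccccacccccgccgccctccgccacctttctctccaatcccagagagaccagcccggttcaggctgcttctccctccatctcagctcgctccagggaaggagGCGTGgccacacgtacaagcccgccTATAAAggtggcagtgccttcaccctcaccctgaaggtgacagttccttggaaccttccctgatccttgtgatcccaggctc
CYP1A1 Kbz peak centre: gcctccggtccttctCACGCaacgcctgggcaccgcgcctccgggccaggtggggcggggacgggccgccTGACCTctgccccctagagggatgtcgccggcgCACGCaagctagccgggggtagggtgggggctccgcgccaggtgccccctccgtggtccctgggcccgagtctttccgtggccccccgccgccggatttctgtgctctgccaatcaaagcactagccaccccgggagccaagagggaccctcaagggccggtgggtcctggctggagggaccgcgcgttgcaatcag
The promoter held 1 GCGTG, beginning at base 194 of the printed run, and 1 TATAAA, beginning at base 219. The Kbz peak centre held GCGTG at 2 places, both on the opposite strand. These letters were common: 36.5% of 35116 RefSeq promoters and 35.8% of the centres of all Kbz peaks held GCGTG. CpG dinucleotides were at 0.39 of the number expected from the base composition in the promoter and at 0.69 in the Kbz peak centre.

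CYP1A2 (ENSG00000140505.7; chromosome 15, 74748845 to 74756607, plus strand) encodes a caffeine-oxidising liver enzyme and is the head-to-head neighbour of CYP1A1. In contrast to its neighbour, none of the lists had a peak over its only annotated start. The nearest control Kac peak began 3411 bp downstream of the TSS and the nearest SB Kac peak 1666 bp downstream. Both were among the weakest of their lists, at percentiles 2.97 and 1.5, with q of 0.018 and 0.0167. The SB Kac peak reached into the promoter and the control peak stopped short of it, so CYP1A2 was the single member with a promoter call in SB Kac and none in control Kac. These 2 peaks overlapped each other. Of all genes, 2.13% had a promoter call in SB Kac alone and 3.01% in control Kac alone. The CYP1A2 call was lost once the deposited −log10 q had to reach 2, the number that corresponds to the false discovery rate of 0.01 stated by the study. Stronger peaks lay downstream of the gene, where control Kac (percentile 42.9), SB Kac (65.4) and Kbz (41.7) overlapped, the Kbz peak lying 11362 to 11910 bp from the TSS.

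CYP1B1 (ENSG00000138061.12; chromosome 2, 38066973 to 38109902, minus strand), the third gene of the family, encodes an enzyme of estrogen and xenobiotic oxidation found mostly outside the liver. Its 3 control Kac peaks and 3 SB Kac peaks matched pair by pair. The strongest pair lay just upstream of the canonical TSS at 38076151, 95 to 1630 bp away in control cells (percentile 75.2) and 308 to 1621 bp away after SB (percentile 65.8). A Kbz peak of 1137 bp lay over the same stretch, 319 to 1455 bp upstream, at percentile 20.8. This stretch is also the promoter of the antisense gene CYP1B1-AS1, and reads of the 2 genes' starts cannot be told apart there. The other pairs lay in an intron of the longest transcript, with near edges 16104 and 30265 bp upstream of the canonical start in control cells. Their percentiles were 32.7 and 54.6 without SB and 24.2 and 59.6 with it, and they carried no Kbz. The farther pair counted as promoter peaks. It lay 2749 bp (control Kac) and 2987 bp (SB Kac) from another annotated start of CYP1B1 at 38109902. This pair also lay within 3 kb of a start of CYP1B1-AS1.

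**Figure D2:**
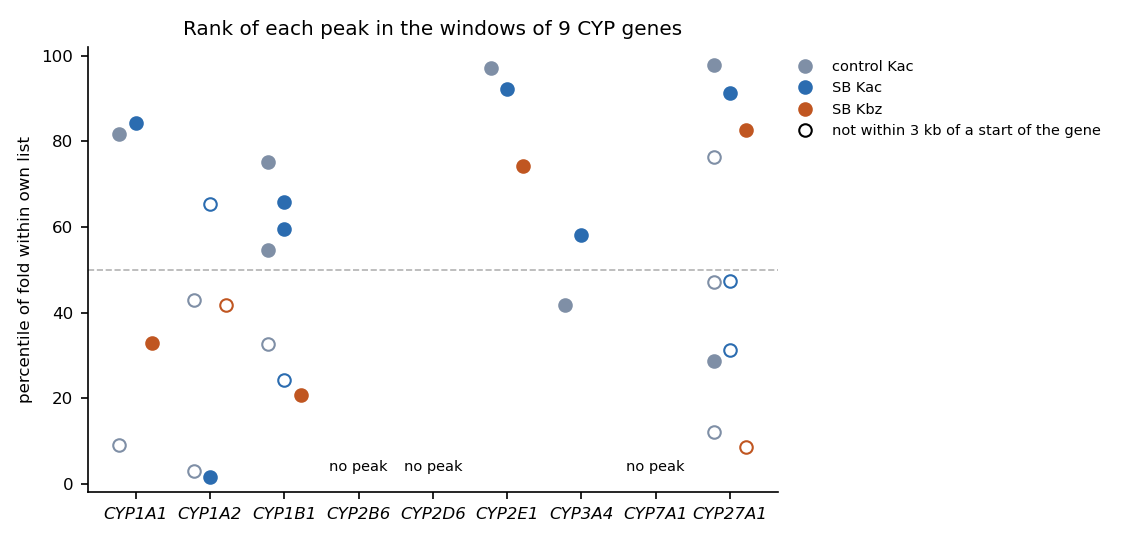
Percentile of the fold of every window peak within its own list (y axis) by gene (x axis), coloured by list; open circles are peaks farther than 3 kb from every start of the gene, and the dashed line is at 50. The strongest Kac peaks of CYP2E1 and CYP27A1 stand above 90, and the Kbz peaks of CYP1A1 and CYP1B1 stand in the lower part of their list.

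CYP2E1 (ENSG00000130649.10; chromosome 10, 133520406 to 133561220, plus strand) encodes the ethanol-inducible enzyme of the liver. It had 1 peak in each list, all at the same place. It spanned 133519935 to 133521106 in control Kac, 133519952 to 133521109 after SB, and 133519912 to 133521071 in Kbz. Each covered an alternative start at 133520406, which belongs to 1 protein-coding transcript and lies 6957 bp upstream of the canonical TSS. They ranked at percentiles 97.0, 92.3 and 74.2 of their lists, next to the highest among the 9 genes in control Kac and the highest in SB Kac. The edges nearest to the canonical TSS were 6257, 6254 and 6292 bp from it, and no peak covered the canonical start itself. Which transcript the cells made was not measured here.

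The CYP2E1 promoter at the canonical start (RefSeq, GRCh38.p14, chr10:133527113-133527412, plus strand), where no list had a peak, is set beside the centre of the Kbz peak at the alternative start (hg38, chr10:133520342-133520641, plus strand), with capitals as above.
CYP2E1 promoter: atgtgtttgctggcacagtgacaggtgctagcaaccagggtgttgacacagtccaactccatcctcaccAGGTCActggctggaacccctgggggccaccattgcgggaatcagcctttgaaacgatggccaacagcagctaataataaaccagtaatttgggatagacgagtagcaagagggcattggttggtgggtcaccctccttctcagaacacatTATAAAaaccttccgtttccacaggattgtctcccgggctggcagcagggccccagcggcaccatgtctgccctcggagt
CYP2E1 Kbz peak centre: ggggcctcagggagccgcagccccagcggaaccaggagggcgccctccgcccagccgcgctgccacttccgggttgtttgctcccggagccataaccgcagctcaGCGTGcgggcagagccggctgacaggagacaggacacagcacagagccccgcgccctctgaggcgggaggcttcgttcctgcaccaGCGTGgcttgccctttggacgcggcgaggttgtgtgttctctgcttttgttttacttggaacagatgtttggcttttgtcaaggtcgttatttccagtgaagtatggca
The unmarked canonical promoter held a TATAAA and 7 CpG dinucleotides, 0.32 of the number expected. The marked stretch held no TATAAA and 21 CpG dinucleotides, 0.71 of the number expected.

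CYP3A4 (ENSG00000160868.16; chromosome 7, 99756960 to 99784248, minus strand) encodes the enzyme that oxidises the largest number of drugs in the adult liver. Its window held 1 small peak in each Kac list. The control peak of 280 bp lay 17667 to 17946 bp downstream of the canonical TSS (percentile 41.8), and the SB peak of 410 bp lay 17440 to 17849 bp downstream (percentile 58.0). They overlapped each other and counted as promoter peaks because an annotated transcript of the gene with no defined coding sequence starts at 99767822. The same stretch lies within 3 kb of a start of the gene ENSG00000273407. No Kbz peak lay in the window, and the nearest was 134647 bp upstream of the canonical TSS, at the promoter of TRIM4. CYP3A4 was thus marked by Kac inside the gene and by none of the lists at its canonical start. The promoter there (RefSeq, GRCh38.p14, chr7:99784135-99784434, minus strand) is shown because it held no CpG at all and both of the nuclear receptor sequences.
CYP3A4 promoter: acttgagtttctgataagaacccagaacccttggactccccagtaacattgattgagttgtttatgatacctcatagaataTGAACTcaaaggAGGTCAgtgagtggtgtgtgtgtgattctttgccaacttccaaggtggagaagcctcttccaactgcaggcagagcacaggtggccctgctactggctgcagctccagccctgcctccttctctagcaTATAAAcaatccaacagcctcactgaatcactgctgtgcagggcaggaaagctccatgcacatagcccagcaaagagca
An AGTTCA on the opposite strand begins at base 82 and an AGGTCA at base 94, followed by TATAAA at base 222. Of all RefSeq promoters 13.8% held AGGTCA, 10.4% AGTTCA and 11.5% TATAAA.

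CYP27A1 (ENSG00000135929.9; chromosome 2, 218781749 to 218815293, plus strand) encodes the mitochondrial sterol hydroxylase of the alternative pathway of bile acid synthesis. The gene held more peaks than any other of the 9, with 5 Kac peaks in control cells, 3 after SB, and 2 Kbz peaks. The strongest of each list overlapped at an internal start at 218805914, which lies 23767 bp downstream of the canonical TSS and belongs to a short protein-coding transcript. These spanned 218804883 to 218808692 in control Kac (percentile 97.8), 218804923 to 218807886 in SB Kac (91.2) and 218804917 to 218807774 in Kbz (82.7). A second place with all marks lay in an intron, 16732 to 17888 bp downstream of the TSS for Kbz, at percentile 76.2 for Kac without SB, 47.3 for Kac with SB and 8.67 for Kbz. Both places lie within 3 kb of starts of the gene ENSG00000286154. A control Kac peak of 443 bp, 1818 bp downstream of the canonical TSS (percentile 28.8, q of 0.0106), and another of 459 bp (percentile 12.1) had no counterpart after SB. At the far end of the gene, near ENSG00000272555, a control Kac peak of 3333 bp stood over an SB Kac peak of 357 bp with no Kbz.

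The CYP27A1 promoter at the canonical start (RefSeq, GRCh38.p14, chr2:218781897-218782196, plus strand) and the centre of the Kbz peak at the internal start (hg38, chr2:218806196-218806495, plus strand) show the reverse of CYP2E1, a CpG-rich start without peaks over it and a CpG-poor stretch with all marks.
CYP27A1 promoter: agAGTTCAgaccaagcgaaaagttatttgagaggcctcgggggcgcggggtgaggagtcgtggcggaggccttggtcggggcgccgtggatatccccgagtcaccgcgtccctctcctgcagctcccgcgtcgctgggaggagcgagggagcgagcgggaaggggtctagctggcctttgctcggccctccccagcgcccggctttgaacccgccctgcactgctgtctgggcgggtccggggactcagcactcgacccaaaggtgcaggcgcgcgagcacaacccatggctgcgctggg
CYP27A1 Kbz peak centre: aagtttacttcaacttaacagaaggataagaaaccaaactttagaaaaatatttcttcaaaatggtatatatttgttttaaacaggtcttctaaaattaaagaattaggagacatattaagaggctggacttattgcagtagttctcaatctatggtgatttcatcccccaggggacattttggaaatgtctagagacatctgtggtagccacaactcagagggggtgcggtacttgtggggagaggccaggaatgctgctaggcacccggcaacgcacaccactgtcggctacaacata
The promoter held 29 CpG dinucleotides, 0.83 of the number expected, and no TATAAA. The Kbz peak centre held 4, 0.32 of the number expected, and none of the motifs searched.

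Of the 6 Kbz peaks of the windows, those at CYP1A1, CYP1B1 and CYP2E1 had CpG ratios of 0.69, 0.98 and 0.71 in their central 300 bases, and each held GCGTG at least at 2 places. The Kbz peaks of CYP1A2 and CYP27A1 had ratios of 0.18, 0.35 and 0.32 and held no GCGTG. The median over all Kbz peaks was 0.48. Over the Kac lists it was lower, 0.24 for control Kac and 0.26 for SB Kac.

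The genes without peaks were CYP2B6, which encodes an inducible enzyme of drug oxidation, CYP2D6, which encodes the enzyme that oxidises many antidepressants and opioids, and CYP7A1, the rate-limiting enzyme of the classical pathway of bile acid synthesis. For CYP2B6 (ENSG00000197408.10; chromosome 19, 40991282 to 41018398, plus strand) the nearest peaks lay 52811 bp (control Kac), 69084 bp (SB Kac) and 73941 bp (SB Kbz) from the canonical TSS. The SB Kac peak lay at the pseudogene CYP2B7P and the Kbz peak at the pseudogene CYP2G2P. For CYP2D6 (ENSG00000100197.23; chromosome 22, 42126499 to 42130865, minus strand) they lay at 39030, 39096 and 39070 bp, all at the promoter of NDUFA6, a gene of mitochondrial complex I, where the Kac peaks ranked at percentiles 98.8 and 99.0 and the Kbz peak at 88.6. For CYP7A1 (ENSG00000167910.4; chromosome 8, 58490178 to 58500163, minus strand) they lay at 13261, 52514 and 52668 bp, the last pair at the promoter of SDCBP.

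**Figure D3:**
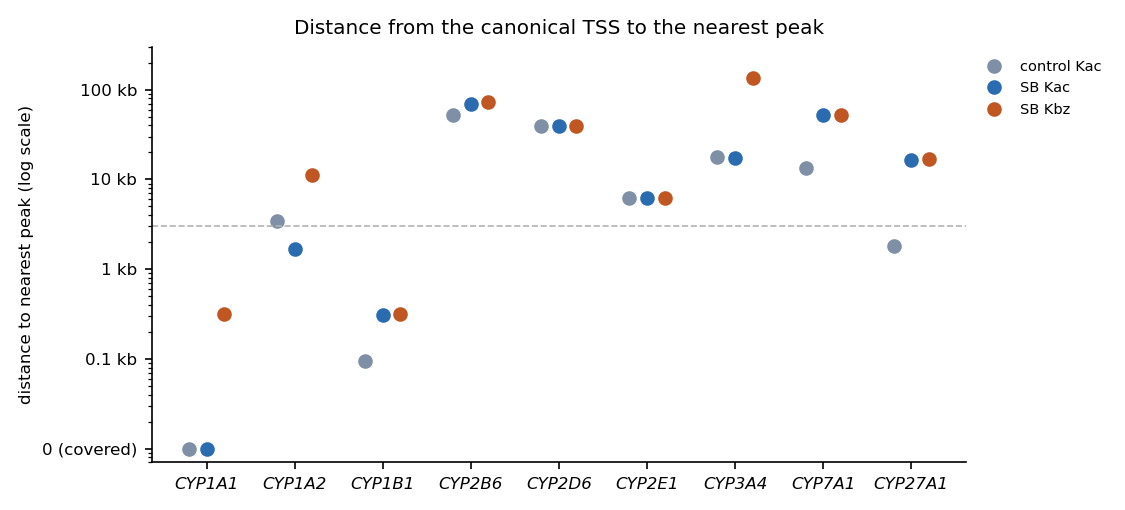
Distance from the canonical TSS of each of the 9 CYP genes (x axis) to the nearest peak of control Kac, SB Kac and SB Kbz (points, log scale on the y axis), with 3 kb as the dashed line and genes whose TSS lies under a peak drawn at the bottom. Only the TSS of CYP1A1 is covered, by both Kac lists, and the 3 genes without window peaks lie between 13261 and 73941 bp from a peak.

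Reads that match more than 1 place were removed before peaks were called, and CYP genes have close copies. Of the 50-base stretches of the CYP2D6 window 60.2% occurred once among the main chromosomes of hg38 and 4.52% once when the alternative and other sequences of the build were counted too. The study aligned to the UCSC hg38 genome distributed with Illumina iGenomes. Which of those sequences that bundle holds was not analysed here, and an absent peak at CYP2D6 cannot be told apart from reads that were dropped. In the other 8 windows 88.5% to 96.6% of the stretches occurred once, with or without those sequences, among them 88.5% for CYP2B6 and 96.0% for CYP7A1.

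Promoters poor in CpG were common among CYP genes. RefSeq promoters of 40 of the 57 protein-coding CYP genes were matched, 6 of them of the genes described. CYP1B1, CYP2D6 and CYP7A1 were not among them. The CpG ratio was below 0.5 in 27 of the 40. With a Kbz peak within 3 kb of the canonical start, 13 promoters had a median CpG ratio of 0.77, 7 with SB Kac and no Kbz had 0.13, and 20 with neither had 0.14, against 0.58 for all RefSeq promoters. The groups overlapped: the ratio was below 0.5 in 3 of the 13, 6 of the 7 and 18 of the 20. Among the 13, the sequence of CYP4X1 (0.05) lay at chr1:46961114-46961413, where no list had a peak. Its GENCODE gene begins at 47023669, and the Kbz peak counted lies there, so this ratio does not describe the stretch with Kbz. CYP1A1 (0.39) lay below most promoters with Kbz, and CYP27A1 (0.83) above most of those without. The ratios of CYP1A2, CYP2B6, CYP2E1 and CYP3A4 were 0.05, 0.05, 0.32 and 0.0. Counted on either strand, TATAAA occurred in 5 of the 6 promoters of the described genes and in 15 of all 40 CYP promoters (37.5%). It occurred in 11 of the 20 with neither mark (55.0%), and in 11.5% of all RefSeq promoters. In the CYP2B6 promoter it lay on the opposite strand alone. The promoters share gene families and duplicated clusters, and no test was made.

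**Figure D4:**
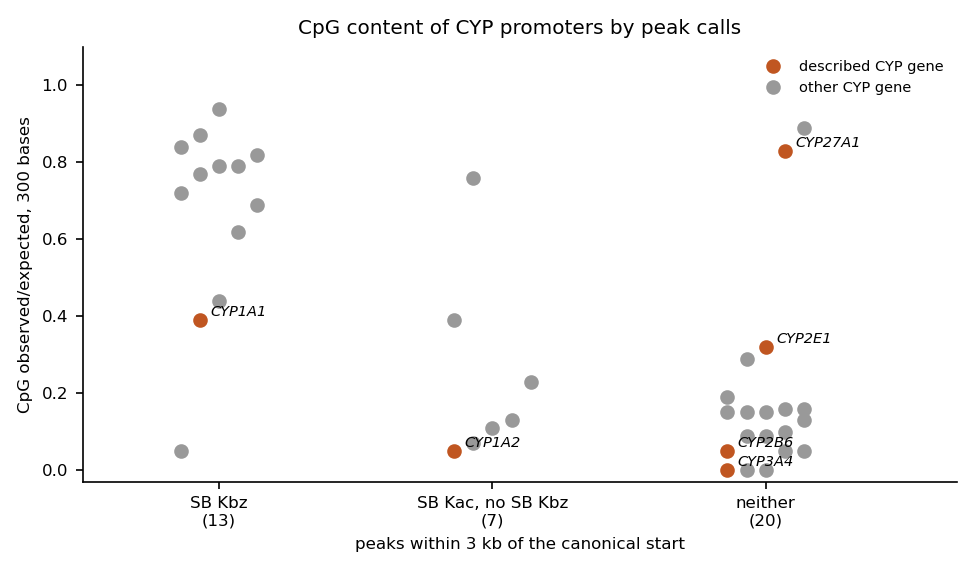
CpG observed over expected in 300 bases at the RefSeq start of 40 CYP genes (y axis), grouped on the x axis by SB Kbz and SB Kac peaks within 3 kb of the canonical start; orange points are the 6 described genes with a sequence. Most promoters with Kbz stand above 0.5 (10 of 13) and most with neither mark below it (18 of 20). The sequence of CYP4X1 (0.05, with Kbz) lies away from the canonical start that carries its peaks.

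The other 48 CYP genes were counted by family. Among 28 further genes of families 2 to 4, which hold most drug- and fatty acid-oxidising enzymes, 9 had a promoter peak in each Kac list and 7 had one in Kbz. Among 20 genes of families 5 to 51, which act mostly on sterols, steroids, vitamins and prostanoids, the counts were 14, 13 and 9. With the 7 described genes of families 1 to 3 added, families 1 to 4 had 13, 14 and 10 of 35 genes with a promoter peak (37.1%, 40.0% and 28.6%). Over all 57 CYP genes the counts were 28, 28 and 20, or 49.1%, 49.1% and 35.1%, beside the 76.8%, 75.9% and 64.8% of all protein-coding genes. Repeated sequence limits these counts. At the promoter of CYP21A2, without a peak, 26.8% of the read-length stretches occurred once on the main chromosomes. The share was 56.2% for CYP11B1, 58.5% for CYP2A7, 59.7% for CYP2A6 and 62.9% for CYP4F11. It was 74.0% to 100% for the other CYP genes without a promoter peak. Absent peaks at the genes with low shares cannot be told apart from dropped reads. Every CYP gene with a Kbz peak at a promoter also had Kac there in both lists. For SB Kac this held for nearly all protein-coding genes: 12944 had Kbz at a promoter, and 12892 of them had SB Kac too.

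The 16 other CYP genes with Kbz at a promoter were led by CYP27C1, a retinoid desaturase, with the Kbz peak at percentile 96.9, followed by CYP27B1 (91.1) and CYP2R1 (86.7), which both activate vitamin D. The CYP27B1 peak is shared with METTL1 and EEF1AKMT3, and lies 4386 bp from its canonical start. TBXAS1, thromboxane synthase, followed at percentile 85.8, through a start that lies near the promoter of HIPK2. CYP4V2 (71.6), CYP20A1 (70.5), CYP2J2 (69.8), an epoxygenase of arachidonic acid, and CYP46A1 (67.6), the cholesterol hydroxylase of the brain, came next. CYP2U1 (58.2), CYP26A1 (56.8), which degrades retinoic acid, CYP4F22 (55.2) and CYP51A1 (54.2), the lanosterol demethylase of cholesterol synthesis, ended the upper 12, and 4 more ranked lower. CYP19A1, aromatase, was the one CYP gene with a promoter peak in control Kac and none in SB Kac, at percentile 31.6. It lay at an alternative start, 94026 bp from the canonical one.

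**Figure D5:**
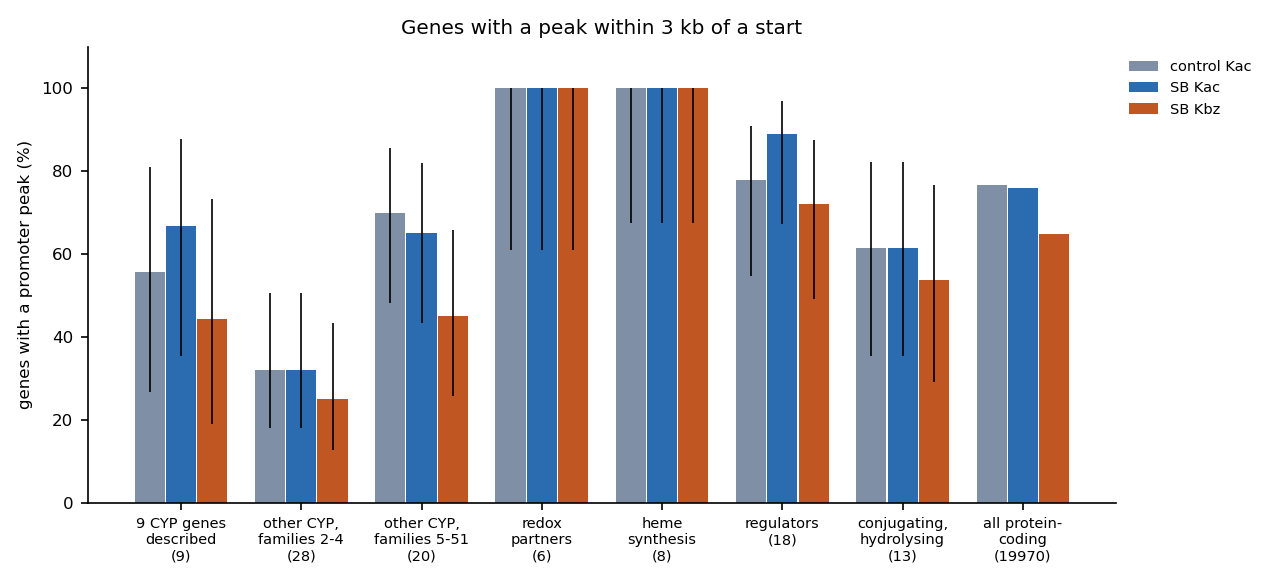
Share of genes with a peak within 3 kb of any annotated start (y axis, percent) for the 9 CYP genes, the other CYP genes, 4 pathway lists and all protein-coding genes (number of genes in parentheses on the x axis); bars are control Kac, SB Kac and SB Kbz, and lines are Wilson 95% intervals, which cover counting error only. The redox partners and the heme synthesis genes reach 100% in every list, and the 28 further CYP genes of families 2 to 4 stay at 25.0% to 32.1%.

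All 6 redox partner genes, which pass electrons to P450s, had promoter peaks in the 3 lists (Wilson 95% interval 61.0% to 100%), beside 76.8%, 75.9% and 64.8% of all genes. The Kbz peak of CYB5R3 ranked at percentile 97.9, that of FDXR, the mitochondrial reductase, at 84.2 and that of POR, the reductase of microsomal P450s, at 77.5. FDX1 (56.3), FDX2 (53.4) and CYB5A (46.1) followed. All 8 genes of heme synthesis were likewise marked in every list, with UROS (88.5) and ALAS1, the rate-limiting step (87.4), ahead of PPOX (65.7), UROD (52.2) and FECH (32.0). The Kbz peaks of FDX2, UROS, PPOX and UROD cover the canonical starts of these genes. They also lie within 3 kb of starts of other coding genes, ENSG00000167807, BCCIP, USP21 and HECTD3 in turn.

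Of 18 regulators of CYP genes, a promoter peak was called for 14 in control cells and 16 after SB (Kac), and for 13 in Kbz. These shares (77.8%, 88.9% and 72.2%) had Wilson 95% intervals that included the 76.8%, 75.9% and 64.8% of all protein-coding genes. High Kbz ranks were those of NR3C1, the glucocorticoid receptor (percentile 99.7), CEBPA (96.6), AHR (94.3), RXRA, the shared partner of nuclear receptors (82.3), and NR1H3 (77.2). The Kbz peaks counted for NR1H3 also lie within 3 kb of a start of ACP2 or MADD. The nearest Kbz peak is 8424 bp from the canonical start of NR1H3. The AHR peak also lies within 3 kb of a start of ENSG00000283321. FOXA2 and NR1H4, the bile acid receptor, had no promoter peak in any list. Chosen after the values were seen, NR1I2 and NR1I3, the xenobiotic receptors PXR and CAR that drive CYP3A4 and CYP2B6, had a promoter peak in SB Kac alone (percentiles 31.7 and 95.4), and HNF4A had Kac (37.7 in control, 15.1 in SB) without Kbz. The peak counted for NR1I3 also lies within 3 kb of starts of APOA2, an apolipoprotein gene, and TOMM40L. Over all genes, 2.13% had a promoter peak in SB Kac and none in control Kac. The nearest SB Kac peaks were 12864 and 3657 bp from the canonical starts of NR1I2 and NR1I3, so these calls too rested on other starts.

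Of 13 conjugating and hydrolysing enzymes, which act on the products of P450s, 8 had a promoter peak in each Kac list and 7 had one in Kbz. Their shares (61.5%, 61.5% and 53.8%) lay below those of all protein-coding genes, with Wilson 95% intervals that included them. NQO1, an AHR and NRF2 target, ranked at percentile 88.4 of the Kbz list and GSTP1 at 84.0. SULT1A1 (52.7), SULT2A1 (44.8) and NAT1 (37.9) were lower. Kac covered the canonical start of SULT2A1 at percentiles 97.5 (control) and 91.4 (SB). EPHX1 had promoter Kac in both lists and no Kbz there. GSTA1, NAT2, UGT1A1, UGT1A6 and UGT2B7 had no promoter peak in any list.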

How the data were processed

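MNase ChIP-seq peak lists of control Kac, SB Kac and SB Kbz were used, 1 library each; the input libraries were left aside. Per the methods and labels, the authors aligned 50 bp single reads to hg38 (the UCSC build from Illumina iGenomes) with Bowtie2 2.2.6, kept uniquely mapped reads, removed duplicates with SAMtools 0.1.19 and called peaks with MACS2 2.1.1 at a false discovery rate of 0.01. The broad setting and the background track are not given in the sources used here. The deposited fold, a linear ratio over background averaged over a broad peak, served only for percentiles within a list. Thresholds were set on the deposited −log10 p and −log10 q. The lowest −log10 q was 1.31, below the 2 that corresponds to the stated rate. Whether these values are averaged over a broad peak, as the fold is, was not analysed here. The deposited score, a display value, was not used. Peak lists carry no read totals, and a deeper library yields more peaks.

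The 3 control Kac peaks off the main chromosomes were left out. Genes came from GENCODE 44, promoter sequences from RefSeq (GRCh38.p14). An overlap was at least 1 bp. Shares have Wilson 95% intervals. The CYP genes and all gene lists were chosen with earlier results of these data known. Named were all 9 genes, of the other CYP genes up to 12 with Kbz at a promoter by rank and up to 8 with Kac in 1 Kac list, and of each pathway list up to 6 with Kbz by rank and up to 6 without Kac. Overlaps were tested on simulated data (3000 of 3000 planted queries found, 0 called beside peaks), and 0 of 480 window counts differed from bedtools 2.31.1. Python 3.11.15, numpy 2.4.6, pandas 2.3.3 and matplotlib 3.10.9 were used. Results were recomputed under 10 alternatives. Some genes counted in the gene lists are not reported here by name.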

Additional observations from a re-analysis of the deposited data

How the results depend on the processing

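The 16 counts and shares were recomputed under 10 alternatives, 110 values in all, of which 86 stayed within 1.5 times the count or within the interval of the share and 24 did not. With −log10 q limited to 5 and above, the genes with a window peak fell to 3 (control Kac), 3 (SB Kac) and 2 (SB Kbz) of 9, those with a promoter peak likewise to 3, 3 and 2, the window peaks to 4, 3 and 2, and the other CYP genes with a promoter peak to 13 in both Kac lists. CYP2E1 and CYP27A1 kept a peak in each list there, and CYP1A1 kept both Kac peaks at its start and lost Kbz. With the 15000 peaks of highest −log10 p per list, the genes with a window peak and with a promoter peak were 3 and 3 in either Kac list. The window peaks were 4 in control Kac and 3 in SB Kac, the other CYP genes 9 and 11, and 100% of the SB Kac peaks overlapped Kbz (3 of 3). Kbz then had 4 genes with a window peak, 3 with a promoter peak, 4 window peaks and 12 other CYP genes. Of these 4 Kbz peaks, 3 overlapped SB Kac (75.0%). With lists of equal size, the Kbz counts were thus not below those of SB Kac. The canonical start alone gave 3, 3 and 2 genes with a promoter peak. Without the flanks, 3 genes had a Kbz peak in the window. Fewer peaks, starts or bases enter these alternatives by construction. CYP2B6, CYP2D6 and CYP7A1 had no window peak under any of them.

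No paired analysis was possible because no result came from a test and every group had 1 library. Leaving out a replicate was not possible for the same reason. Unknown depth limits every count and every absent peak.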

Other observations

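CYP genes stand in tandem clusters, and the intervals between the outermost genes were counted after the values of the single genes had been seen. In the interval of the CYP2C genes on chromosome 10, 386 kb with 4 genes of drug oxidation, there was 1 control Kac peak and 0 SB Kac and Kbz peaks. The interval of the 4 CYP3A genes on chromosome 7, 218 kb, held 2, 2 and 0 peaks, those of CYP3A4 and a pair at the start of CYP3A5 (percentile 90.3 in control Kac and 54.4 in SB Kac). The interval from CYP2A6 to CYP2S1 on chromosome 19, 364 kb around CYP2B6, had 11 peaks in control Kac, 5 after SB and 2 in Kbz, and they covered 4.78%, 1.57% and 0.523% of it. In the windows of CYP2A6 and CYP2A7, 56.0% and 59.8% of the read-length stretches occurred once on the main chromosomes. For the other CYP genes of this interval the share was 83.0% to 88.6%. Absent peaks at CYP2A6 and CYP2A7 cannot be told apart from dropped reads. The interval of 6 CYP4F genes on chromosome 19, 426 kb, held 5, 5 and 4 peaks, which covered 1.25%, 0.931% and 0.675% of it. That of 5 CYP4A, CYP4B, CYP4X and CYP4Z genes on chromosome 1, 392 kb, held 2, 1 and 1 peaks. Over the whole genome the lists covered 4.22%, 3.74% and 1.05%. Of the 11 control Kac peaks around CYP2B6, 2 lay at CYP2S1, and others lay at the pseudogenes CYP2G1P, CYP2A7P2, CYP2B7P and CYP2G2P. Between CYP1A1 and CYP1A2 a weak Kac peak lay outside both windows, 968 bp long in control Kac (percentile 16.1) and 547 bp in SB Kac (6.47). The peaks covered 19.7%, 13.0% and 2.9% of the 37.1 kb from CYP1A1 to CYP1A2. With 1 library per list none of these differences was tested.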
